A study of Mus musculus with 6 samples.

Results

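The interferon regulatory factors (IRFs) are a family of transcription factors, and 8 of their genes, Irf1, Irf2, Irf3, Irf4, Irf5, Irf7, Irf8 and Irf9, were followed here among 30102 genes measured in mouse mast cells. A gene entered through array rows that the platform annotation assigns to that symbol alone, and of several such rows the brightest over the 6 arrays stood for the gene. The cells were bone marrow-derived mast cells, a primary culture grown from the femurs of C57BL/6J mice in medium with interleukin 3 and supernatant containing stem cell factor for 6 weeks. In 1 group of 3 arrays the cells had been held for 1 h in Tyrode's buffer with 1 µg/mL ionomycin, an ionophore that carries calcium into the cell. In the other group of 3, called naive, they had been held in that buffer alone. Cells of both groups were then washed and kept in culture medium for 3 h, so RNA was taken 4 h after the exposure began. The labels do not say whether the 3 samples of a group were separate cultures or animals, so p-values refer to the spread among these samples alone, and that spread may be technical.

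IRF proteins share an amino-terminal DNA-binding domain that recognises repeats of GAAA, the core of the interferon-stimulated response element (ISRE). IRF3 and IRF7 are phosphorylated by the kinases TBK1 and IKK-epsilon and switch on type I interferon genes, and IRF9 is the DNA-binding part of a complex that answers interferon. IRF1 activates and IRF2 mostly restrains interferon-responsive genes, IRF5 acts below Toll-like receptors, and IRF4 and IRF8 act mainly in blood cells, often bound to DNA together with PU.1 or BATF. In lymphocytes IRF4 is induced by antigen receptor signals, and IRF8 takes part in the development of mast cells and basophils.

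The stretch of DNA before the transcription start was read for the 8 genes from RefSeq promoters of assembly GRCm38.p6, where all 8 were found. Those of Irf4, Irf8, Irf1 and Irf2 are shown because Irf4 passed the test between the groups, Irf8 is its closest relative in the family, and Irf1 and Irf2 held matches to several of the motifs searched. Each line gives the 250 bases before the first listed start, 5′ to 3′ on the strand of the gene. The windows lie at chr13:30748983-30749232 for Irf4, chr8:120736108-120736357 for Irf8, chr11:53769764-53770013 for Irf1 and chr8:46739495-46739744 for Irf2, all on the plus strand. Capitals mark every match to the motifs named after the sequences.
Irf4: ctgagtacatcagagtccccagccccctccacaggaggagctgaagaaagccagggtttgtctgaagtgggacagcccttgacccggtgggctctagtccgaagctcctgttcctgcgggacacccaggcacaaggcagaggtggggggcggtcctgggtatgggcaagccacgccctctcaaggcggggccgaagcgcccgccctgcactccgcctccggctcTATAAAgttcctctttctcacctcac
Irf8: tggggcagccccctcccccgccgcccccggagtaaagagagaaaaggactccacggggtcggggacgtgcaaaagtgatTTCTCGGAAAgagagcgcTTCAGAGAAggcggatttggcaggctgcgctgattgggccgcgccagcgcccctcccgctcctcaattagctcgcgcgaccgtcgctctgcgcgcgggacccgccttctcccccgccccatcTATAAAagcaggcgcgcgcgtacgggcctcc
Irf1: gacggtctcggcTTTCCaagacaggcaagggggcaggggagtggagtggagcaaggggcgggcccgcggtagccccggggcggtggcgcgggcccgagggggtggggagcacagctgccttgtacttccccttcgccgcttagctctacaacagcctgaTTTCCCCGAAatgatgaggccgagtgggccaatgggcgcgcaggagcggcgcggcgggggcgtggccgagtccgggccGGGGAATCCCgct
Irf2: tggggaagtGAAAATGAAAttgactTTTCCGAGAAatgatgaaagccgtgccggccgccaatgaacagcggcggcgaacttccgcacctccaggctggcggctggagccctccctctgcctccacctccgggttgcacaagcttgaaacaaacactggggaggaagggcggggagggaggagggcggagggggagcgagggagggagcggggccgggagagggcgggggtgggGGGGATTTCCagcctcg

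The motifs were searched on both strands. They were the ISRE core (2 copies of GAAA on the same strand, 2 bases apart), the STAT-binding element GAS (TTCNNNGAA), the NF-kB consensus, the NFAT core GGAAA, the TATA box (TATAAA) and the AP-1 site TGANTCA. The TATA box lay 26 to 21 bases before the start of Irf4, 31 to 26 before that of Irf8 and 29 to 24 before that of Irf7, not shown. Of 32851 mouse promoter windows of this length 12.4% held one at any position, on either strand. In Irf1 a GAS match (90 to 82 bases before the start) overlapped an NFAT core, as was also the case in Irf2 and Irf8. An NF-kB match of Irf1 lay 13 to 4 bases before the start. Irf2 held an ISRE core (241 to 232), a GAS match (224 to 216) and an NF-kB match (17 to 8), and Irf8 held 2 GAS matches (171 to 163 and 153 to 145). Over all windows the share with a match was 2.98% for the ISRE core, 7.02% for GAS, 7.25% for NF-kB, 6.75% for AP-1 and 55.6% for the NFAT core. A match is a run of letters, not a shown binding site, and the Irf4 window held none of these motifs apart from the TATA box. No window of the 8 genes held an AP-1 match, and of the 8 the ISRE core was matched in Irf2 alone.

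At 4 h after ionomycin, 1 of the 8 genes was higher, Irf4, and 0 were lower by the fit across all genes (limma, adjusted p under 0.05). Of all 30102 genes 0.289% were called higher and 0.0598% lower, 0.349% in all. With the replicate number as a block the counts among the 8 were again 1 and 0, and 0.395% of all genes were called higher and 0.11% lower. By unadjusted p under 0.05, limma put 2 of the 8 higher (Irf4 and Irf8) and 1 lower (Irf3; 2 lower with arrays centred on their median), where 15.6% of all genes reached that level in either direction. The differences of the 8 genes had a median of 0.10 on the log2 scale, against 0.05 for all genes, with 5 above 0 and 3 below. By size without sign their median difference was 0.25, against 0.11 for all genes. The arrays of the groups did not overlap for 3 of the 8 (Irf3, Irf4 and Irf8), of which 2 were higher and 1 lower. Of all genes 26.2% had no overlap, 18.9% higher and 7.31% lower. The count of 3 among 8 is read against that background. RNA came from whole cultures, so a change in how much RNA a cell holds and a change in how many cells of a type are present cannot be told apart.

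**Figure D1:**
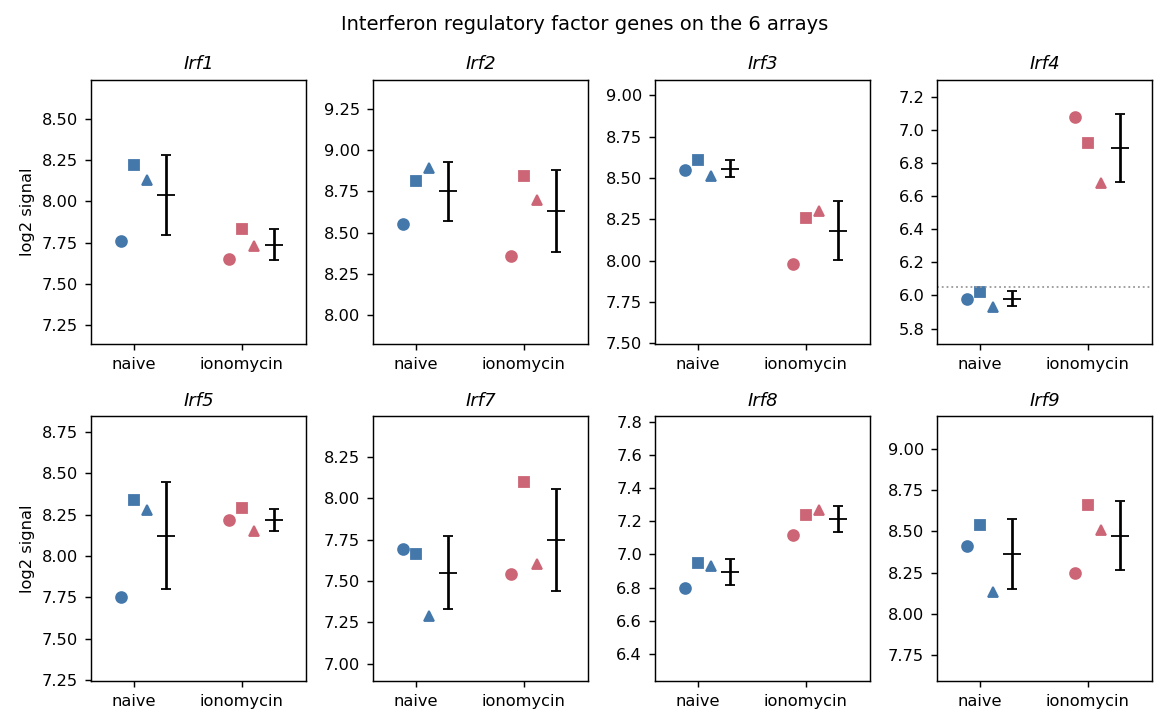
Log2 signal (vertical axis) of each IRF gene on the 3 naive and 3 ionomycin arrays. Circles, squares and triangles are replicates 1, 2 and 3, black bars give the mean and SD of each group, every panel spans the same number of log2 units, and the dotted line in the Irf4 panel is the background level. The Irf4 arrays run from 5.93 to 6.02 in naive and from 6.68 to 7.08 in ionomycin cells.

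Irf4 was at 5.98, 6.02 and 5.93 (log2 signal) on naive replicates 1, 2 and 3 and at 7.08, 6.92 and 6.68 on ionomycin replicates 1, 2 and 3. All 3 ionomycin arrays were above all 3 naive arrays, and the naive arrays were nearly level with each other. The mean went from 5.98 ± 0.04 to 6.89 ± 0.21 (SD, n = 3 per group). Irf4 was higher on the ionomycin arrays (limma adjusted p = 0.0436). Because the naive arrays were not above background, the full fold cannot be given. The ionomycin mean was 1.79-fold above the background level, a point value without an interval. The measured signals differed by 0.91 ± 0.11 SE on the log2 scale (95% interval 0.65 to 1.17). That difference was 1.10, 0.89 and 0.74 at replicate numbers 1, 2 and 3.

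The naive Irf4 signal lay just under the background level, so low expression and none cannot be told apart there. The background level of 6.05 is the value under which 95% of 1771 odorant, taste and vomeronasal receptor genes lay, taking the mean of each over the arrays, and 0 of 3 naive arrays and 3 of 3 ionomycin arrays were above it. The value of 1.79-fold sets the ionomycin mean against that level and takes no account of the spread among arrays.

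The Irf4 call was close to the threshold. With the replicate number as a block its limma adjusted p was 0.0435. After quantile normalization it was 0.0799 and with every array centred on its median 0.0742, with differences of 0.84 and 0.85 on the log2 scale. It passed in 0 of the 6 fits that leave out 1 array. The limma adjusted p was 0.0679, 0.205 and 0.147 without naive replicate 1, 2 or 3, and 0.0688, 0.257 and 0.0768 without ionomycin replicate 1, 2 or 3. In those fits the difference ran from 0.82 to 1.02.

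**Figure D2:**
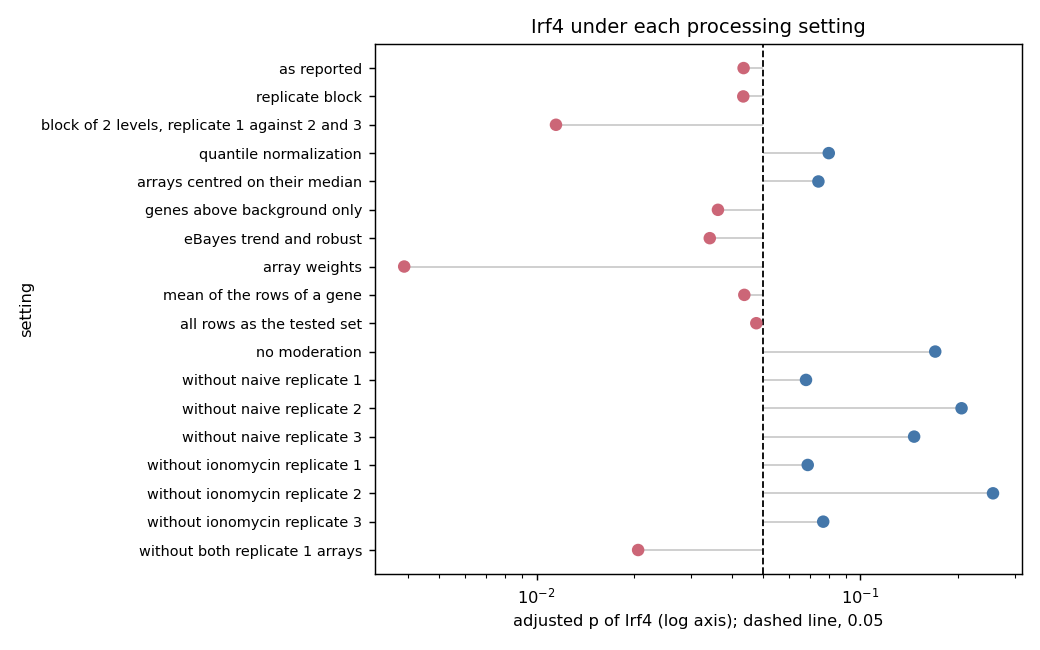
Limma adjusted p of Irf4 (horizontal log axis) under each processing setting (vertical axis), red where it is under 0.05 and blue where it is not; the setting without moderation is an ordinary fit. It was 0.0436 as reported and ran from 0.0679 to 0.257 in the 6 fits without 1 array.

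Irf8 was at 6.80, 6.95 and 6.93 on the naive arrays and at 7.12, 7.24 and 7.27 on the ionomycin arrays. The groups did not overlap, and the difference was much alike at the 3 replicate numbers (0.32, 0.30 and 0.34). The mean went from 6.89 ± 0.08 to 7.21 ± 0.08 (SD, n = 3 per group), a log2 difference of 0.32 ± 0.07 SE with a 95% interval of 0.15 to 0.49. Irf8 did not pass without a block (limma adjusted p = 0.158) or with the replicate number as a block (0.0855). It passed with a block that sets replicate 1 against replicates 2 and 3 (limma adjusted p = 0.0259) and with array weights (0.0155). These 2 settings called far more genes. Under the former 2.25% of all genes were higher and 2.47% lower, 4.72% in all. Array weights called 2240 of 30102 genes higher and 1654 lower. A pass with array weights, here and below, is read against those counts.

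Irf3, the factor that turns on interferon beta after viral nucleic acid is sensed, was at 8.55, 8.61 and 8.51 on the naive arrays. On the ionomycin arrays it was at 7.98, 8.26 and 8.30, all below the naive ones. The log2 difference was -0.37 ± 0.10 SE (95% interval -0.61 to -0.14), which did not pass (limma adjusted p = 0.203, and 0.124 with the replicate block). Replicate number 1 had the widest gap (-0.57, against -0.35 and -0.21 at numbers 2 and 3). With array weights it passed (adjusted p = 0.0263).

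Irf7, which amplifies the interferon response, was at 7.69, 7.66 and 7.29 on the naive and 7.54, 8.10 and 7.60 on the ionomycin arrays. The groups overlapped, and the difference was -0.15, 0.44 and 0.31 at replicate numbers 1, 2 and 3. Its mean difference of 0.20 ± 0.18 SE did not pass (limma adjusted p = 0.589), and the 95% interval of -0.24 to 0.64 allows changes in either direction.

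Irf1, a gene that interferon gamma induces, was at 7.76, 8.22 and 8.13 on the naive arrays and at 7.65, 7.83 and 7.73 on the ionomycin arrays. Ionomycin arrays were lower at all 3 replicate numbers, yet the lowest naive array lay within the ionomycin range. The difference of -0.30 ± 0.13 SE did not pass (95% interval -0.61 to 0.01, limma adjusted p = 0.329). A second Irf1 row, with a 6-array mean of 6.26, differed less, and with the mean of both rows the difference was -0.17 (adjusted p = 0.460). With array weights Irf1 passed as lower (adjusted p = 0.0306). Irf2, its antagonist, was at 8.55, 8.81 and 8.89 on the naive arrays and at 8.36, 8.84 and 8.70 on the ionomycin arrays. Replicate 1 was the lowest array of each group for Irf2, and the groups overlapped (difference -0.12 ± 0.15 SE, 95% interval -0.48 to 0.24, limma adjusted p = 0.691).

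Irf5 was at 7.75, 8.34 and 8.28 on the naive arrays and at 8.22, 8.29 and 8.15 on the ionomycin arrays. Naive replicate 1 stood below the other 5 arrays. The mean difference was 0.10 ± 0.16 SE (95% interval -0.29 to 0.48, limma adjusted p = 0.771) and turned to -0.09 without that array. Irf9, the DNA-binding partner of STAT2, was at 8.41, 8.54 and 8.13 on the naive arrays and at 8.25, 8.66 and 8.51 on the ionomycin arrays. These ranges overlapped, and the difference was 0.11 ± 0.15 SE (95% interval -0.24 to 0.46, limma adjusted p = 0.709).

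**Figure D3:**
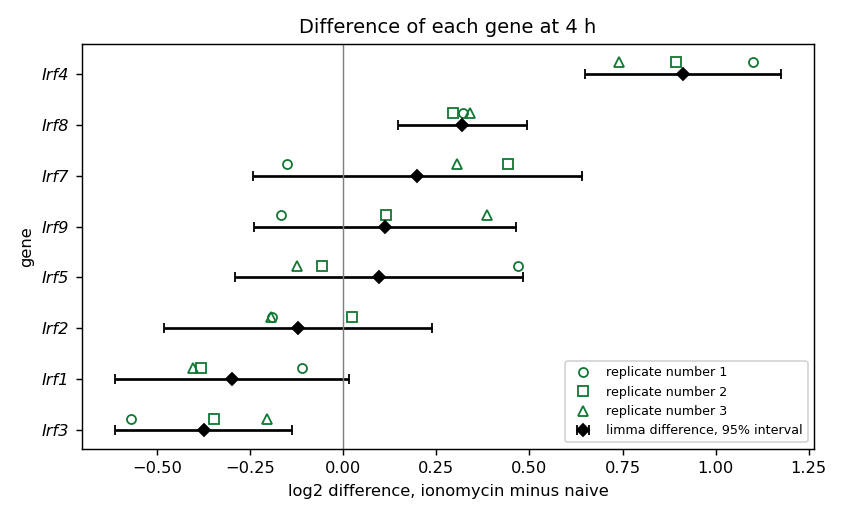
Log2 difference of ionomycin minus naive (horizontal axis) for the 8 IRF genes (vertical axis). Diamonds and bars are the limma difference and its 95% interval, and open symbols are the difference at each replicate number; Irf4 lies highest at 0.91 and Irf3 lowest at -0.37.

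Among sensors and kinases upstream of the IRFs, 0 of 17 measured genes passed by limma, and the median difference was 0.05. By unadjusted p under 0.05, limma put 3 higher and 2 lower, where 15.6% of all genes reached that level in either direction. Tbk1, the kinase of IRF3 and IRF7, was at 10.07, 9.86 and 9.79 on the naive and 9.48, 9.58 and 9.50 on the ionomycin arrays. Its groups did not overlap, and the difference of -0.39 ± 0.09 SE did not pass (limma adjusted p = 0.160, and 0.0220 with array weights). Tlr4, the lipopolysaccharide receptor, differed by 0.21 (adjusted p = 0.358). The widest difference in this list, chosen after its value was seen, was that of Ifih1, the RNA sensor MDA5 (0.96 ± 0.22 SE, limma adjusted p = 0.159; 0.0069 with array weights and 0.0078 without both replicate 1 arrays).

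Of 17 interferon, interferon receptor and JAK-STAT genes, Jak2 rose and 16 did not pass, with a median of 0.06. Jak2, a kinase of the interferon gamma receptor and of many cytokine receptors, was at 9.96, 10.10 and 10.21 on the naive and 10.69, 10.79 and 10.84 on the ionomycin arrays (0.69 ± 0.09 SE, limma adjusted p = 0.0485, and 0.0819 after quantile normalization). The interferon beta gene Ifnb1 was below background in both groups, at 4.84 ± 0.05 and 4.94 ± 0.01 (SD, n = 3). The receptor gene Ifnar1 differed by -0.13 (limma adjusted p = 0.687), and Ifngr1 by -0.57 ± 0.17 SE (adjusted p = 0.232, and 0.0699 with the replicate block). Ifngr1 passed with the block of replicate 1 against replicates 2 and 3 (adjusted p = 0.0166), without both replicate 1 arrays (0.0292) and with array weights (0.0329). The groups of Ifngr1 did not overlap, with a lowest naive array of 8.92 and a highest ionomycin array of 8.75. Stat2 was at -0.18 (limma adjusted p = 0.672) and Jak1 at 0.06 (0.617; -0.01 after centring). The PU.1 gene Spi1 was not analysed here.

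Of 16 partners and corepressors of IRF proteins, 0 passed by limma, and the median was 0.12, or 0.05 with arrays centred on their median. By unadjusted p under 0.05, limma put 3 higher and 3 lower, where 15.6% of all genes reached that level in either direction. Batf, a partner of IRF4 and IRF8 at AP-1 sites, differed by 0.17 ± 0.09 SE (limma adjusted p = 0.399). Rela, an NF-kB subunit, was lower on all 3 ionomycin arrays than on any naive array (-0.21 ± 0.07 SE, adjusted p = 0.256, and 0.0386 with array weights). The corepressor gene Irf2bp2 was at 10.46, 11.48 and 11.62 on the naive arrays, so its difference of 0.18 ± 0.31 SE rests on naive replicate 1 and was -0.18 without it. The widest difference, chosen after its value was seen, was that of the transcription factor gene Ets1 (0.92 ± 0.23 SE, limma adjusted p = 0.193; 0.0350 with array weights and 0.0320 without both replicate 1 arrays).

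Of 49 measured interferon-stimulated genes, 3 rose, 0 fell and 46 did not pass, with a median difference of 0.14 against 0.05 for all genes. By unadjusted p under 0.05, limma put 15 higher and 1 lower, where of all 30102 genes 3060 were higher and 1639 lower. This split depends on the scaling: with arrays centred on their median it was 12 and 3 for the list, and 1585 and 2629 for all genes. The list median was then 0.07, against -0.01 for all genes. Centring also turned the median of the sensors and kinases to -0.02 and that of the interferon and JAK-STAT genes to -0.01. With the replicate number as a block 2 interferon-stimulated genes rose and 0 fell, and with the block of replicate 1 against replicates 2 and 3 the counts were 8 and 2. Tnfsf10, the death ligand TRAIL, was at 6.99, 7.50 and 6.95 on the naive and 8.58, 8.82 and 8.70 on the ionomycin arrays, a 2.94-fold rise (limma adjusted p = 0.0285). Cxcl10, a chemokine, went from 5.63 ± 0.17 to 6.47 ± 0.07 (SD, n = 3). Its limma adjusted p was 0.0395, with 0.0519 after quantile normalization and 0.0522 after centring. Its naive arrays lay below background, and its ionomycin mean was 1.33-fold above that level, a point value without an interval. Gbp3, a guanylate-binding protein gene, rose by 0.68 ± 0.09 SE (limma adjusted p = 0.0485). It did not pass with the block (0.0704), after quantile normalization (0.0753) or after centring (0.0723). The ends of the list, chosen after their values were seen, were Rsad2, the antiviral protein viperin (1.62 ± 0.36 SE, adjusted p = 0.155), and Il15, a cytokine (-1.20 ± 0.23 SE, adjusted p = 0.112). Both passed with the block of replicate 1 against replicates 2 and 3 (limma adjusted p = 0.0392 for Rsad2 and 0.0346 for Il15) and without both replicate 1 arrays (0.0323 and 0.00087). They also passed with array weights (0.0171 and 0.0022), and Il15 passed without naive replicate 1 (0.0062).

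These pathway calls mostly did not hold in fits without 1 array. In those fits the log2 difference ran from 0.62 to 0.75 for Jak2 and from 0.78 to 0.94 for Cxcl10. For Gbp3 it ran from 0.61 to 0.75 and for Tnfsf10 from 1.46 to 1.73. Of all genes 87 were called higher with every array kept, and 95 without naive replicate 1. Without naive replicate 2 or 3 the counts were 13 and 8, and without ionomycin replicate 1, 2 or 3 they were 35, 1 and 7. Leaving out 1 array at a time, Jak2, Cxcl10 and Gbp3 passed in 0 of 6 fits, with limma adjusted p from 0.0517 to 0.273, from 0.0624 to 0.241 and from 0.0690 to 0.273. Tnfsf10 passed in 2 of 6, without naive replicate 1 (adjusted p = 0.0469) or naive replicate 2 (0.0324). It did not pass without naive replicate 3 (0.103) or without ionomycin replicate 1, 2 or 3 (0.0688, 0.182 and 0.162).

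Of 9 genes that IRF4 or IRF8 bind in other leukocytes, 0 passed by limma, and the median was 0.12, or 0.05 after centring. At an unadjusted p under 0.05, limma put 2 higher and 0 lower, where 15.6% of all genes reached that level in either direction. Cst3, the protease inhibitor cystatin C, was at 11.51, 11.74 and 11.69 on the naive and 11.77, 11.92 and 11.84 on the ionomycin arrays (0.20 ± 0.08 SE, limma adjusted p = 0.322). Bcl6, a repressor, differed by -0.07 (adjusted p = 0.845). The widest difference in this list, chosen after its value was seen, was that of Il4, a cytokine gene (0.69, limma adjusted p = 0.153). Of the 9 differences 7 were above 0 and 2 below. With the block that sets replicate 1 apart, a setting that called far more genes, 1 of the 9 was higher and 0 lower.

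**Figure D4:**
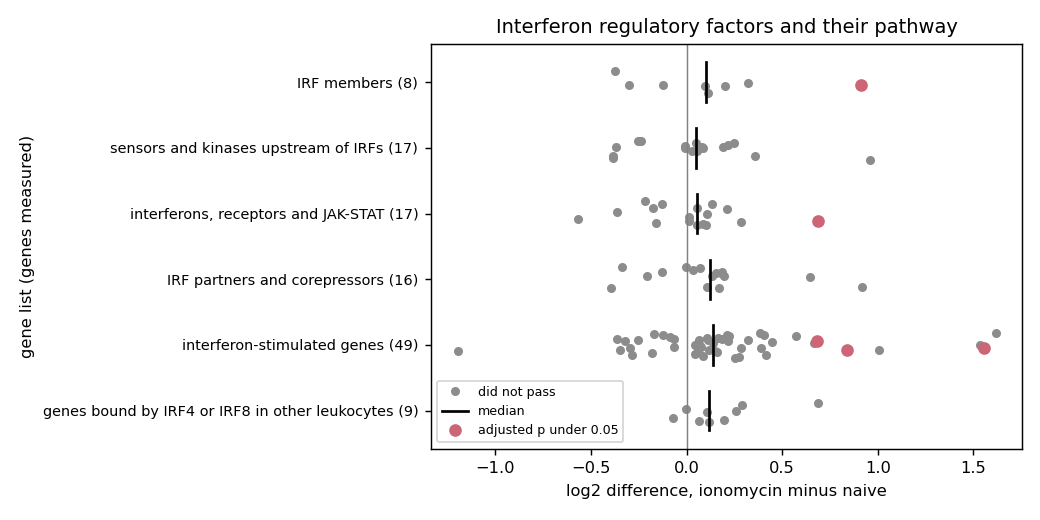
Log2 difference of ionomycin minus naive (horizontal axis) for the IRF genes and 5 pathway lists (vertical axis, with the number of genes measured). Each point is a gene, red where the limma adjusted p is under 0.05, and the black bar is the list's median; the interferon-stimulated genes run from -1.20 to 1.62 with a median of 0.14.

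The profile over the 6 arrays was compared with 13614 named genes above background, by the root mean square distance between profiles centred on their own mean. The comparison was made for the 3 IRF genes with the widest range, Irf4 (1.15 log2 units), Irf7 (0.81) and Irf3 (0.63). Nearest to Irf4 were Shtn1, a shootin cytoskeletal gene (distance 0.07), Gimap5, a GTPase gene of lymphocytes (0.09), and Dusp4, a MAP kinase phosphatase gene (0.09). All 3 were picked for likeness to Irf4, so a similar difference was fixed by that choice. Their p-values are not separate evidence. Shtn1 differed by 0.97 ± 0.08 SE (limma adjusted p = 0.0153) and Gimap5 by 0.98 ± 0.11 SE (0.0364, and 0.0651 after centring). Dusp4 at 0.80 ± 0.13 SE did not pass (0.0788). Without 1 array Shtn1 passed in 2 of 6 fits, with naive replicate 1 left out (adjusted p = 0.0266) or ionomycin replicate 3 left out (0.0454). It did not pass without naive replicate 2 or 3 (0.102 and 0.0904) or ionomycin replicate 1 or 2 (0.0527 and 0.130), and Gimap5 passed in 0 of 6 (0.0588 to 0.220).

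Nearest to Irf7 were Oas1b (0.05), Klk1b11 (0.08) and Trim30a (0.10), of which Oas1b and Trim30a belong to families of interferon-induced genes. Like Irf7, all 3 were highest on ionomycin replicate 2. Nearest to Irf3 were Pik3cd, a lipid kinase subunit (0.02), Vps33b, a vesicle sorting gene (0.03), and Arhgap17 (0.03), which were lowest on ionomycin replicate 1, as Irf3 was. Their differences of -0.37, -0.37 and -0.32 did not pass (limma adjusted p = 0.205, 0.223 and 0.240). Profiles over 6 arrays share the same RNA samples and scaling, and the genes were picked for nearness, so nearness is a description only.

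**Figure D5:**
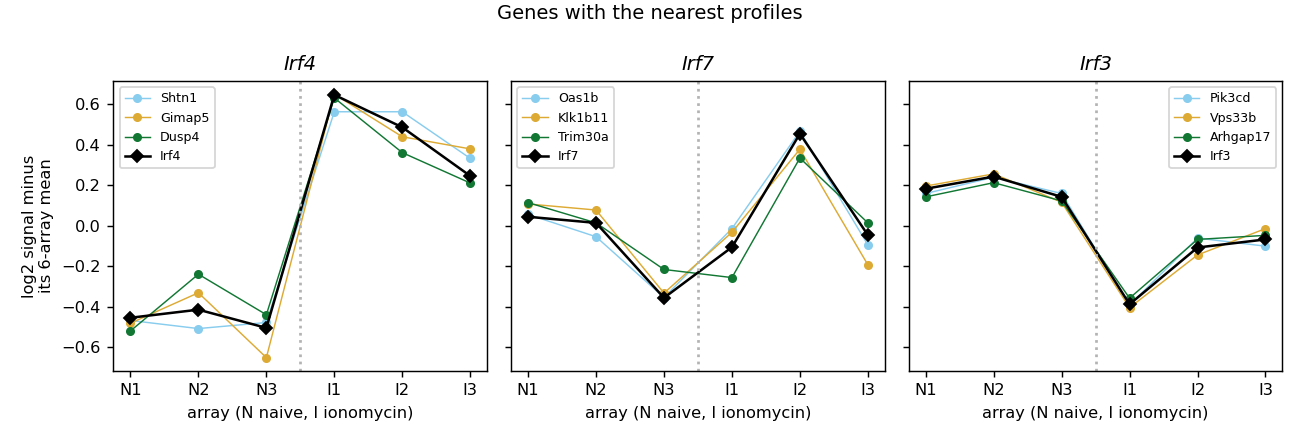
Log2 signal minus its 6-array mean (vertical axis) for Irf4, Irf7 and Irf3 (black) and the 3 genes with the nearest profiles (colours) on naive (N) and ionomycin (I) arrays 1 to 3 (horizontal axis). Irf4 and its nearest genes are low on all naive arrays and high on all ionomycin arrays, while Irf7 peaks on ionomycin replicate 2; lines join arrays for reading only.

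The 8 genes lie at 8 places on 6 chromosomes, with Irf3 and Irf7 on chromosome 7 and Irf2 and Irf8 on chromosome 8 the pairs that share one. Of the 16 nearest named protein-coding genes on either side in RefSeq order, 15 were measured and 0 passed by limma, with differences from -0.29 to 0.51. An unadjusted p under 0.05 was reached by 4 of them, and by 15.6% of all genes. Beside Irf4, Dusp22, a phosphatase gene, differed by 0.25 ± 0.07 SE (limma adjusted p = 0.231) and Exoc2, an exocyst subunit gene, by -0.29 ± 0.09 SE (0.256). The flanking genes of Irf4 thus differed in opposite directions, and neither passed.

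Across genes, Pearson's r between arrays was 0.980 to 0.998, and the first principal component held replicate 1 of each group (-48.0 for naive, -21.2 for ionomycin) away from the other 4 arrays (13.0 to 21.9). Values for the 8 genes without both replicate 1 arrays kept the Irf4 call (limma adjusted p = 0.0206). All 12 mast cell markers measured were above background, and 0 of them passed by limma, although at an unadjusted p under 0.05 there were 1 higher and 4 lower. Irf4 and Irf8 are also used by dendritic cells, macrophages and B cells, and 0 of 9, 0 of 12 and 0 of 6 of those markers passed by limma. At an unadjusted p under 0.05, 4, 2 and 1 were higher and 0 lower, and with arrays centred on their median 2, 0 and 1 were higher. Of all 30102 genes 3060 were higher and 1639 lower at that level, and after centring 1585 and 2629. In the basophil, neutrophil, eosinophil, T and NK cell and erythroid lists 0 passed, where the unadjusted counts were 0 to 2 higher and 0 to 1 lower. Signals of a list were also summed on the linear scale, where bright members weigh most, and the log2 of the sum was taken. For the dendritic cell list it was 9.94 to 10.54 in naive and 10.34 to 10.63 in ionomycin arrays, with Flt3, Zbtb46, Xcr1, Clec9a and Ccr9 below background. For macrophages the ranges were 11.23 to 12.21 and 11.38 to 12.31, with Ccr2 and Cd163 below background. For B cells they were 8.64 to 8.66 and 8.73 to 8.81, with Ms4a1, Ebf1 and Blnk below background. The part of these cells in the Irf4 and Irf8 values was not tested.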

How the data were processed

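Total RNA from 3 naive and 3 ionomycin samples was measured on whole-transcript arrays, per the labels' protocols. The authors deposited log2 signals (65770 rows, 6 arrays, 3.01 to 14.6), made with the R package oligo per the submitters' processing notes; for the version, summarization, normalization and build the sources used here give nothing, and the log2 scale was read from the values. Array medians were 5.88 to 5.99 in naive and 5.96 to 6.03 in ionomycin arrays. Of the rows, 30439 have 1 symbol, 2146 several and 33185 none; 827 symbols were updated through Entrez IDs, and 252 of 30102 genes had several rows. Of 189 listed genes 171 were measured.

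Groups and replicate numbers come from the titles. The contrast of ionomycin minus naive was fitted with limma 3.58.1 (in R 4.3.3) over all 6 arrays without a block or filter, two-sided, with Benjamini-Hochberg adjustment over all genes and a threshold of 0.05. SE is the moderated standard error of a difference and SD the standard deviation within a group, and the number of arrays limits precision. The fit was tested on simulated data with noise drawn separately for each array, so deviations shared between arrays were not covered. Same-numbered arrays deviated together across genes (correlations 0.711, 0.476 and 0.469 for numbers 1, 2 and 3). Numbers 2 and 3 crossed were as high (0.524 and 0.481). The values thus set number 1 apart, but they do not show that numbers 2 and 3 pair the samples. The main fit leaves out any pairing, and the fit with the replicate number as a block is given beside it.

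The 8 genes, the lists and the tests were chosen with earlier results of these data known. Named were all 8 genes, list members past the threshold with or without the block (up to 6 a list, and the brightest until 2 were named), Batf, Stat2, Tbk1, Ifnar1, Ifngr1 and Ifnb1 in every case, and the 3 nearest profiles of the 3 genes with the widest range. The promoter motifs and the flanking genes were chosen after the values were seen.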

Additional observations from a re-analysis of the deposited data

How the results depend on the processing

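Irf4 kept its direction in all 17 alternatives. Leaving out 1 array aside, it passed in 8 of 11, the exceptions being quantile normalization, centring and no moderation (adjusted p = 0.170). The replicate block changed no call among the 8 genes. IRF genes called higher were 2 with array weights, 2 with the block of replicate 1 against 2 and 3, 0 after quantile normalization, 0 after centring, 0 without moderation and 0 to 0 without 1 array; those called lower were 2 with array weights (Irf1 and Irf3) and 0 to 0 without 1 array. In each of those settings with 0 higher, limma or the fit without moderation had 2 higher at an unadjusted p under 0.05.

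Over all genes 87 were higher and 18 lower; with the replicate block 119 and 33, with the block of replicate 1 against 2 and 3 677 and 744, with array weights 2240 and 1654, without both replicate 1 arrays 423 and 429, and without moderation 0 and 0 (3258 and 1318 at an unadjusted p under 0.05). With trend and robust settings 9 were lower. Centring gave 69 and 32, which moves the share called higher from 82.9% to 68.3%. Without 1 array the counts ran from 1 to 95 higher and from 0 to 55 lower.

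Signs that turned were those of small differences that passed in no setting. With array weights the log2 difference of Irf5 was -0.046 and that of Irf2bp2 -0.0015. Without both replicate 1 arrays that of Irf5 was -0.091 and that of Irf2bp2 -0.063. With arrays centred on their median that of Jak1 was -0.010 and that of Trim30a -0.0040. In the fits without 1 array the log2 difference ran from -0.22 to 0.016 for Irf2, from -0.090 to 0.21 for Irf5, from -0.0048 to 0.22 for Irf9, from -0.35 to 0.011 for Stat2 and from -0.18 to 0.40 for Irf2bp2. For Bcl6 it ran from -0.25 to 0.042, for Klk1b11 from -0.061 to 0.22 and for Trim30a from -0.089 to 0.20. The cause was not tested.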
